A study of Caenorhabditis elegans with 2 samples.

Results

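The genes rpr-1, mrpr-1 and yrn-1 encode the RNA of ribonuclease P, the RNA of ribonuclease MRP and a Y RNA. They were taken by name from the Ensembl gene models of Caenorhabditis elegans, where they are 3 of the 7764 nuclear genes annotated as ncRNA and 3 of 24689 nuclear RNA genes of all classes. Binding of the protein T23F11.4 at these genes was read from chromatin immunoprecipitation and sequencing (ChIP-seq) of whole late embryos. The series has 1 group with 2 biological replicates, labelled 4 hours of age and of mixed sex, and synchronised by bleaching. All animals came from strain OP709. It has the mutation unc-119(tm4063) and the array wgIs709, which carries unc-119(+) and T23F11.4 fused to the tags TY1, EGFP and 3xFLAG. The immunoprecipitation used an antibody against GFP, per the sample description, while the antibody field names T23F11.4. Tagged protein in 1 strain was therefore measured. The labels give the tag as C-terminal and do not give the promoter that drives it. A control experiment named in the labels was not analysed here.

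Of the 3 genes, rpr-1 and mrpr-1 lay at strong binding regions in both replicates, and yrn-1 had no region within 500 bp in any list. The authors' optimal set, which passed their irreproducible discovery rate threshold, placed 2 peaks at rpr-1 and 1 at mrpr-1. At least 1 optimal summit within 500 bp was thus found for 2 of the 3 genes, where 4.28% of all ncRNA genes had one. The genes were named with earlier results of these data known, so no test was made on the count. Read depth is unknown for these lists.

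Ribonuclease P cuts the 5′ leader from precursor tRNAs, and ribonuclease MRP is a related enzyme that takes part in the processing of precursor ribosomal RNA. Both are built on an RNA that is surrounded by proteins, several of them shared. Y RNAs are short RNAs bound by the Ro protein, ROP-1 in worms, which takes part in RNA quality control. In animals these RNAs are made by RNA polymerase III from promoters that lie upstream of the gene, like the gene of the U6 spliceosomal RNA and unlike tRNA genes. Such promoters hold a proximal sequence element, which is bound by the SNAPc complex, and a TATA box.

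The upstream sequences are shown because the 3 genes have the same layout there, whether or not a binding region was found. In an ungapped comparison of the 150 bases before each start, the best block of 26 bases had 14 positions identical in all 3 genes. The best block elsewhere had 10. The identical letters of the first block fall in 2 parts, GGCNNAACNC and TGTCNGNCNC, with 6 other bases between them. The block began 73 bp upstream of mrpr-1 and 71 bp upstream of both yrn-1 and rpr-1. A TATATA followed it, from 34 bp upstream of mrpr-1 and from 30 bp upstream of yrn-1 and rpr-1. At yrn-1 another TATATA lay before the block, 83 bp upstream. The sequences below run 5′ to 3′ from 150 bases before to 50 bases after the start, on the plus strand of the RefSeq WBcel235 assembly (ce11), at chrII:7200083-7200282 for mrpr-1 and chrIV:7499358-7499557 for yrn-1. Capitals mark both parts of the block and the TATA box.
mrpr-1 promoter: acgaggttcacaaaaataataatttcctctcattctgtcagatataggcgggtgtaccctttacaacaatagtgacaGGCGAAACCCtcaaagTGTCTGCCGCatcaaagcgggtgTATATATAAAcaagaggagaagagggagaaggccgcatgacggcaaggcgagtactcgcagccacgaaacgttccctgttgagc
yrn-1 promoter: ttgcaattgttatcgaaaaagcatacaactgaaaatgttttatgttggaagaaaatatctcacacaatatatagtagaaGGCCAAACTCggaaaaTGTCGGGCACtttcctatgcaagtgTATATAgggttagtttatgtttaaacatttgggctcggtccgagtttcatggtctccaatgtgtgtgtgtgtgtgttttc

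The transcribed sequences of the same pair are shown with the first run of T at the gene end in capitals, since RNA polymerase III stops at such runs. They lie on the plus strand at chrII:7200233-7200430 and chrIV:7499508-7499624 in the same assembly and include 12 bases after the annotated gene end.
mrpr-1 gene: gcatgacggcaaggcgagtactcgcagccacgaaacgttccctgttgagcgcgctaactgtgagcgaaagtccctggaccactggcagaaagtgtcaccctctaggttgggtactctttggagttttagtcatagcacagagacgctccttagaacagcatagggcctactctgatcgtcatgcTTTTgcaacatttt
yrn-1 gene: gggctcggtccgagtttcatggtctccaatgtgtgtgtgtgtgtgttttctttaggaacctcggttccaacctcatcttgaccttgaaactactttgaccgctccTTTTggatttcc

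The run in capitals at the gene end held 4 T in both genes. The printed mrpr-1 sequence also ends in 4 T, in lower case, and whether that run continues beyond the print is not shown. Each gene also holds another run of 4 T inside it, starting 123 bp after the first base of mrpr-1 and 45 bp after that of yrn-1, so a run of this length does not by itself mark the end. The run at the end began 1 base before the last annotated base of mrpr-1 and on the first base after yrn-1. At rpr-1, whose sequence is not shown, a run of 5 T began 1 base before the last annotated base, and no run of 4 or more T lay wholly inside the gene.

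Motifs were sought on both strands of the window from 250 bases before to 50 bases after each start. TATATA was present in all 3 genes, and in 12.3% of 46884 such windows over all nuclear genes. TATAAA was present in mrpr-1 alone of the 3, overlapping its TATATA (37.4% of all windows). TGTCGG was present in rpr-1 and yrn-1, 55 bp upstream of each (6.96% of all windows), and mrpr-1 had TGTCTG at the same place in the block. The B box letters of tRNA genes, GTTCNANNC, were in none of the 3 windows, and in 4689 of the 46884 windows. The B box of a tRNA gene lies inside the gene and may fall beyond these windows, so the whole annotated genes were searched as well, on the gene's strand and after the other values had been seen. There yrn-1 held the letters, starting 63 bp after its first base, and rpr-1 and mrpr-1 did not. They were in 2.73% of ncRNA genes and 95.9% of tRNA genes. A match is a description and not a binding site, and no match says only that the letters are not in that window.

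At the ribonuclease P RNA gene, binding was among the strongest of the data set. The gene rpr-1 (WBGene00045238) spans 253 bp on the plus strand of chromosome I, from 13463955 to 13464207 in ce11. It lies within an intron of ints-8, which runs on the other strand and encodes a subunit of the Integrator complex, and the nearest annotated start of ints-8 was 891 bp downstream of the rpr-1 start. The strongest region had a signal value of 159.1 in replicate 1, 262.5 in replicate 2 and 417.2 in the pooled list, where the signal value is the authors' own score of a region. It ranked 22 of 29994 nuclear regions in replicate 1, 25 of 25794 in replicate 2 and 23 of 29999 in the pooled list. Both replicates thus placed it at almost the same rank, above 99.9% of the regions in each list. The pooled list was derived from the alignments of both replicates and is not a separate measurement. All these lists also hold background. Among the 635 optimal peaks, the strongest region of rpr-1 was above 96.4%.

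The summit of this region lay just inside rpr-1 in every list. It was 19 bp downstream of the first base in replicate 1, 8 bp in replicate 2 and 9 bp in the pooled list, a range of 11 bp. The shared block and the TATA box, upstream of the start, were inside the interval in each list. The pooled interval ran from 13463823 to 13464003 and was 181 bp wide, against a median of 444 bp in that list. It was also narrow in replicate 2 (153 bp, median 440 bp). In replicate 1 it was 464 bp wide, the median of that list.

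A second region covered the whole of rpr-1, with its summit toward the 3′ end. Its signal value was 67.7 in replicate 1, 129.8 in replicate 2 and 198.7 in the pooled list, with ranks of 230, 171 and 169. Its summit lay 219, 207 and 214 bp downstream of the start, so that it fell within the gene in all 3 lists. The first region was 2.35 times as strong as the second in replicate 1, 2.02 times in replicate 2 and 2.1 times in the pooled list. Both belonged to the optimal set, where the second region was above 73.4% of the peaks. Of the 7764 ncRNA genes, 332 had an optimal summit within 500 bp, and 23 of them (0.296% of all ncRNA genes) had 2 or more.

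The second summit at rpr-1 was 200, 199 and 205 bp from the first in replicate 1, replicate 2 and the pooled list. No pair of neighbouring summits lay closer than 199 bp in any of these lists. Of the pooled gaps under 500 bp, 31.0% were between 190 and 210 bp, and 36.2% of the 635 optimal summits had another pooled summit within 250 bp. Whether the regions at rpr-1 are separate sites or 1 broad site was not tested.

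**Figure D1:**
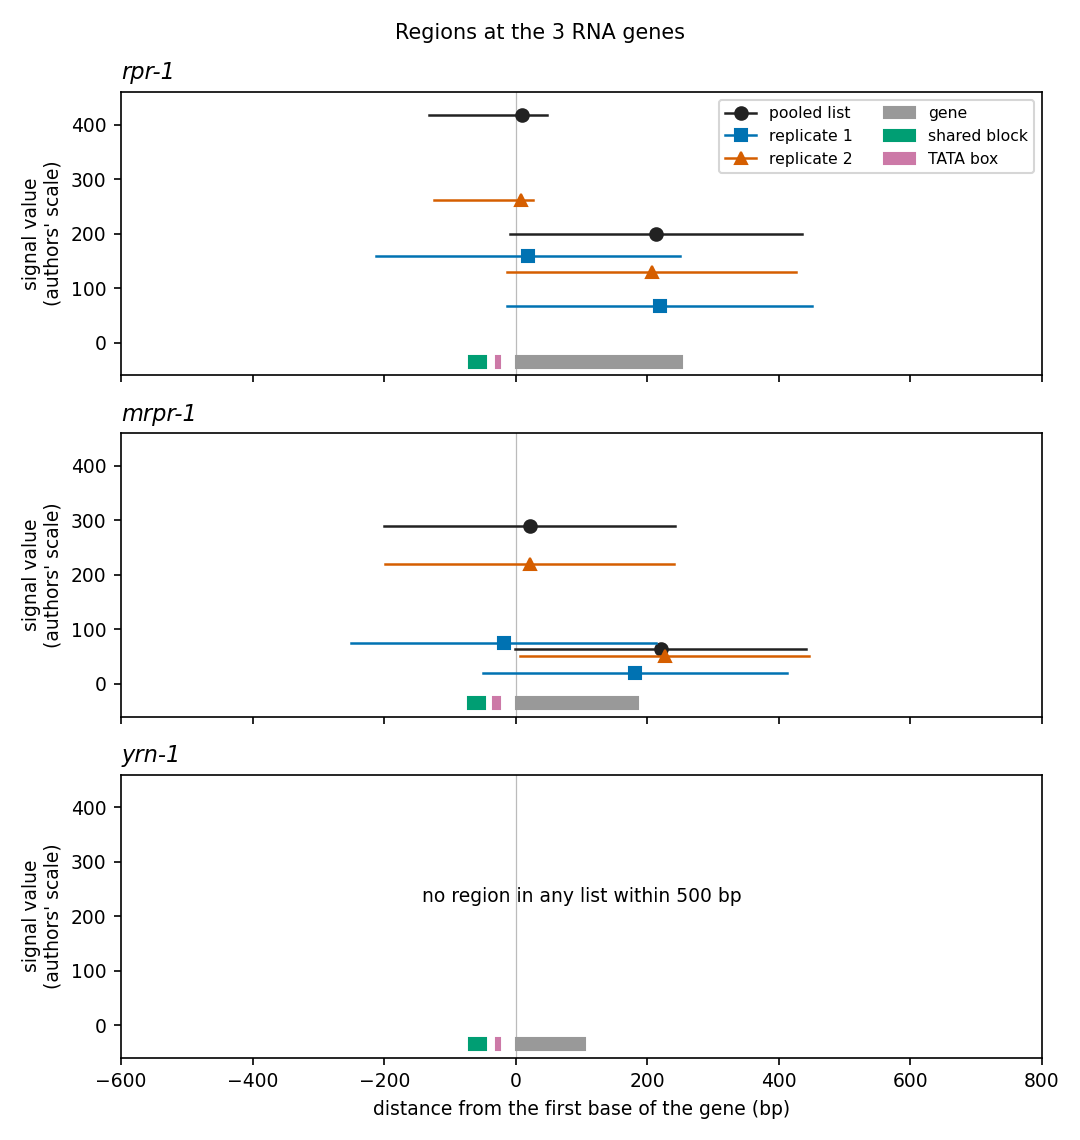
Signal value of each region (vertical axis, the authors' scale, which differs between lists) against distance from the first base of the gene in bp, for rpr-1, mrpr-1 and yrn-1. Points are summits and lines are intervals in the pooled list and both replicates. Coloured bars below 0 on the vertical axis show the gene, the shared block and the TATA box and carry no signal value. The strongest summits sit at the start of rpr-1 and mrpr-1, and yrn-1 has none.

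At the ribonuclease MRP RNA gene, binding was weaker and differed more between replicates. The gene mrpr-1 (WBGene00045095) spans 186 bp on the plus strand of chromosome II, from 7200233 to 7200418. It is intergenic, with the start of E04F6.6 at position -668 bp on the other strand and that of pcrg-1, a homologue of the Parkin co-regulated gene, 316 bp downstream. The strongest region had a signal value of 75.3 in replicate 1, 219.1 in replicate 2 and 289.1 in the pooled list. It ranked 172 in replicate 1, 44 in replicate 2 and 74 in the pooled list, above 99.4%, 99.8% and 99.8% of the regions. Replicate 1 was thus the lower one in rank as well as in signal. These lists also hold background, and among the 635 optimal peaks the region was above 88.3%.

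The summit lay 18 bp upstream of the mrpr-1 start in replicate 1 and 21 bp downstream of it in replicate 2 and in the pooled list. The interval of the optimal peak, from 7200032 to 7200475, covered the block, the TATA box and the whole gene. A second region followed 182, 227 and 221 bp downstream of the start in replicate 1, replicate 2 and the pooled list. In replicate 1 this summit fell within the last bases of the gene, and in the other lists between mrpr-1 and pcrg-1. Its signal value was 19.6 in replicate 1 (rank 16743), 50.6 in replicate 2 (rank 2860) and 63.9 in the pooled list (rank 5472), and it was not in the optimal set. Its summit was 200 to 206 bp from the first, close to the smallest spacing of these lists, as at rpr-1.

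The signal value of replicate 2 over that of replicate 1 was 1.65 at the strongest region of rpr-1, 1.92 at its second region and 2.91 at the strongest region of mrpr-1. Over the 635 optimal peaks, each with the strongest overlapping region of a replicate, the median ratio was 1.75, with 5th and 95th percentiles of 1.14 and 3.06. The ratio at rpr-1 was close to that median. The ratio at mrpr-1 was higher than that of 94.0% of optimal peaks. With 2 replicates, whose lists have different scales, no test of a single region can be made.

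**Figure D2:**
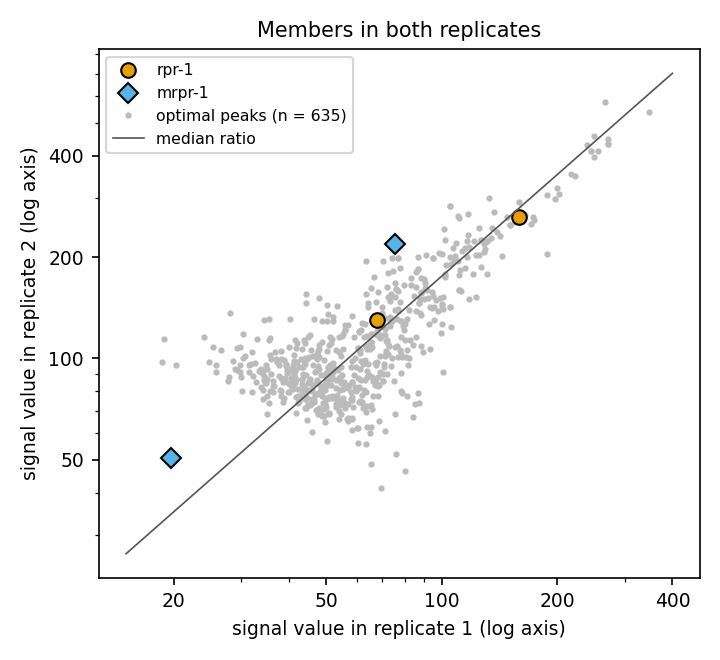
Signal value in replicate 2 against replicate 1, both on log axes. Grey points are the 635 optimal peaks with the strongest overlapping region of each replicate, the line is the median ratio of 1.75, and coloured points are the first and second regions at rpr-1 and mrpr-1. Both regions of rpr-1 lie near the line and both of mrpr-1 lie above it, the second of which is not an optimal peak.

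**Figure D3:**
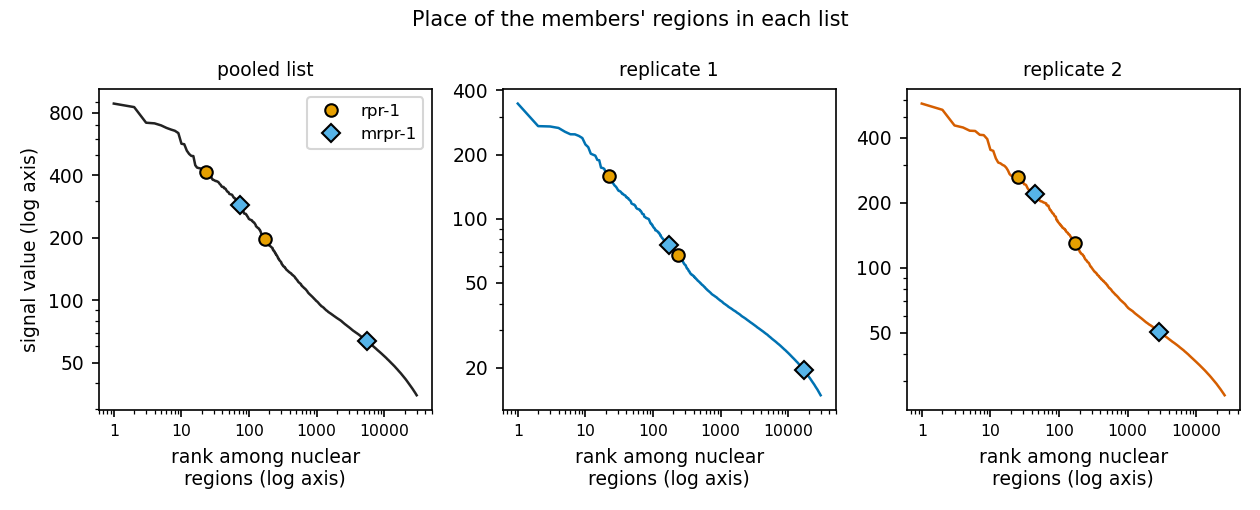
Signal value against rank among nuclear regions in the pooled list and each replicate, all axes logarithmic, with the regions at rpr-1 and mrpr-1 marked. The strongest region of rpr-1 holds rank 23, 22 and 25, and that of mrpr-1 rank 74, 172 and 44.

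All 3 optimal regions of rpr-1 and mrpr-1 had a −log10 q-value of 2.29, the highest in the optimal set, which rpr-1 and mrpr-1 share with many other peaks. The weaker region of mrpr-1 had 0.242 in the pooled list. Positions at rpr-1 and mrpr-1 come from DNA of both strands, so these regions cannot be assigned to the RNA gene rather than to ints-8 or pcrg-1 by strand. No tRNA, snoRNA, snRNA or miRNA gene was close to them. The nearest was 49748 bp from rpr-1 and 15741 bp from mrpr-1, whereas 170 of the 332 ncRNA genes with an optimal summit had their strongest one within 500 bp of such a gene.

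At the Y RNA gene no region was found. The gene yrn-1 (WBGene00006967) spans 105 bp on the plus strand of chromosome IV, from 7499508 to 7499612, within an intron of F55G1.15 and across from the ncRNA gene F55G1.20 on the other strand. The nearest summit was 3905 bp away in replicate 1 (signal value 18.6), 2132 bp in replicate 2 (29.9) and 4304 bp in the pooled list (49.1). The nearest optimal summit was 74469 bp away. The lowest signal values listed were 14.9 in replicate 1, 25.6 in replicate 2 and 34.9 in the pooled list. Weaker binding at yrn-1 would not be listed, so binding there was not detected and is not shown to be absent.

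Absence of a region was common among ncRNA genes. A region of any signal lay within 500 bp of 47.0% of them in replicate 1, 42.6% in replicate 2 and 48.5% in the pooled list, and 38.3% had none in all 3 lists. The surroundings of yrn-1 were not empty, with 8, 6 and 5 regions within 10 kb in replicate 1, replicate 2 and the pooled list, beside medians of 7, 6 and 7 for ncRNA genes. Every 32-base word within 500 bp of yrn-1 occurs once in the nuclear genome, as did 99.5% around mrpr-1 and 92.7% around rpr-1. The promoter window held 36.3% G and C at yrn-1 and 43.7% at mrpr-1, and more at rpr-1. The part of base composition in these values was not tested.

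Among RNA genes, rpr-1 stood near the top. By the strongest pooled region within 500 bp it was 15th of 7764 ncRNA genes and 32nd of 24689 RNA genes, and mrpr-1 was 47th and 103rd. Since genes can share a region, the 31 RNA genes above rpr-1 held 19 distinct optimal peaks, and the 102 above mrpr-1 held 57. Of the 24689 RNA genes, 15363 were piRNA genes, of which 7.52% had a pooled region. The signal values at rpr-1 and mrpr-1 were 417.2 and 289.1. The median was 54.2 over the 3765 ncRNA genes that had a pooled region (quartiles 43.7 and 74.8). No snRNA gene had a higher value than rpr-1, and 1 of 129 was higher than mrpr-1. Higher than rpr-1 were 12 of 346 snoRNA genes and 4 of 612 tRNA genes. Shares of genes with an optimal summit were 27.5% for tRNA, 16.8% for snoRNA and 6.2% for snRNA genes.

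**Figure D4:**
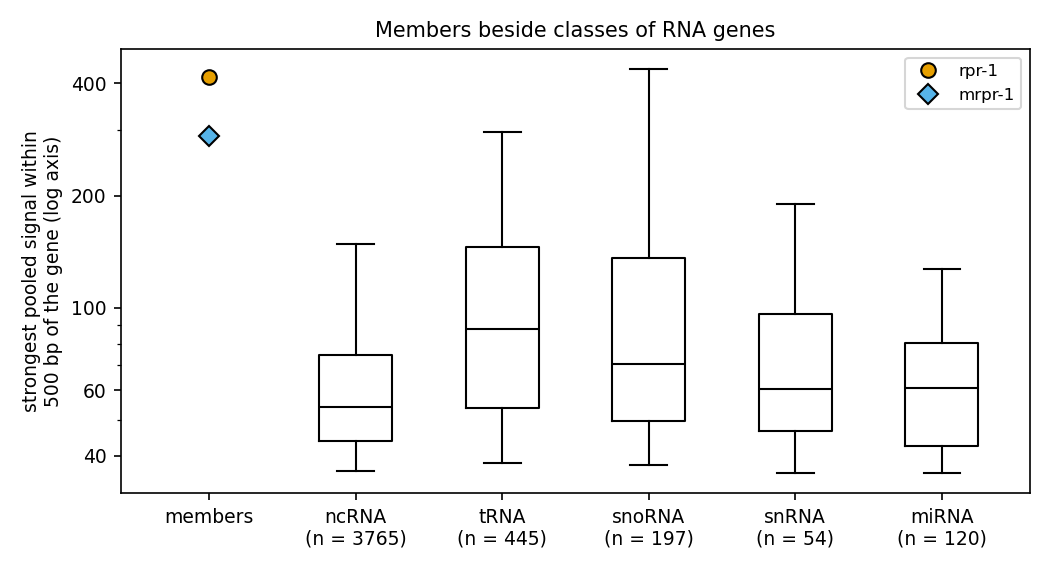
Strongest pooled signal value within 500 bp (log axis) for rpr-1 and mrpr-1, beside the genes of 5 RNA classes that had a pooled region. Boxes show the median and quartiles and whiskers the 5th and 95th percentiles. Both genes lie above the upper quartile of every class, and yrn-1 has no value.

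Summit positions were set beside those of the RNA classes. The strongest optimal summit lay 9 bp and 21 bp downstream of the start at rpr-1 and mrpr-1. The medians were 28 bp downstream of the start for tRNA genes with an optimal summit (quartiles -13 and 54) and 48 bp upstream for snoRNA genes (a median position of -48, quartiles -58.8 and -27.3). The positions at rpr-1 and mrpr-1 lay within the tRNA quartiles, within those of ncRNA genes (-12.5 and 152) and within those of snRNA genes (-47 and 112). They lay outside those of snoRNA genes and outside those of miRNA genes (-374 and -61). They are thus not particular to 1 class, and no test was made.

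The genes most like rpr-1 in signal were the snoRNA gene C10C6.8 (signal values 164.6 in replicate 1 and 266.8 in replicate 2), the asparagine tRNA gene F41D9.T3 (155.6 and 253.7) and the glutamic acid tRNA gene C28G1.T1 (148.0 and 263.0). Likeness was the Euclidean distance of the log2 signal values over both replicates, which was 0.05, 0.06 and 0.1. The pooled summit at F41D9.T3 was 8 bp downstream of the start, and that at C10C6.8 was at position -56 bp. The genes most like mrpr-1 were the ncRNA gene T13H2.7 (distance 0.14), the valine tRNA gene R04D3.T2 (0.24) and the aspartic acid tRNA gene F22F1.T5 (0.25). T13H2.7 had signal values of 76.95 in replicate 1 and 198.9 in replicate 2. Only at F41D9.T3 and R04D3.T2 was the pooled region the strongest one of no other RNA gene. The regions at C10C6.8 and T13H2.7 were shared by 2 RNA genes each, that at C28G1.T1 by 3 and that at F22F1.T5 by 5. The pooled summit at F22F1.T5 lay 394 bp downstream of its start. The shared signal values cannot be credited to the named gene alone. No genes most like yrn-1 could be named, since it has no value. With values from 2 replicates this measure holds little detail.

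The letters shared by rpr-1, mrpr-1 and yrn-1 were then sought upstream of all genes. All 14 shared letters on the gene's strand, first base 45 to 80 bp upstream of the start, were found at 13 of 46884 genes, and only rpr-1, mrpr-1 and yrn-1 of these had a TATATA or TATAAA 20 to 40 bp upstream. This follows in part from how the letters were derived. A shorter form, AACNC and TGTCNG with the same 6 bases between them, was found at 91 genes, of which 34 were annotated as snoRNA and 29 as snRNA genes. At any position and on either strand it was in 0.7% of windows.

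Of these 91 genes, 9 had the TATA box, namely rpr-1, mrpr-1, yrn-1 and 6 snRNA genes. The snRNA genes are annotated as R07E5.16 (5 genes) or F54D8.7, and all 6 hold ACAGAGA, letters of the U6 RNA that mrpr-1 also holds. Over 101 bases the 6 genes are identical, so reads from within them cannot be told apart. An optimal summit lay within 500 bp of 5 of the 9 genes (55.6%), against 5 of the 82 genes without the TATA box (6.1%). A pooled region of any signal lay near 5 of the 9 genes and near 46 of the 82. The highest pooled signal value of the 91 genes was at the snoRNA gene ZK994.7 (677.8), which has no TATA box. The letters were derived from rpr-1, mrpr-1 and yrn-1, which all have the TATA box, so these 3 could fall only among the 9. The shares are therefore not an independent comparison. Of the 6 snRNA genes, 3 had an optimal summit, with pooled signal values of 398.3, 132.6 and 132.4. The other 3 had no pooled region, like yrn-1, although 1 of these had a weak region in replicate 1 (15.8). Genes with and without a region thus occurred under the same promoter letters. The letters and the position limits were chosen after the values were seen, and no test was made.

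**Figure D5:**
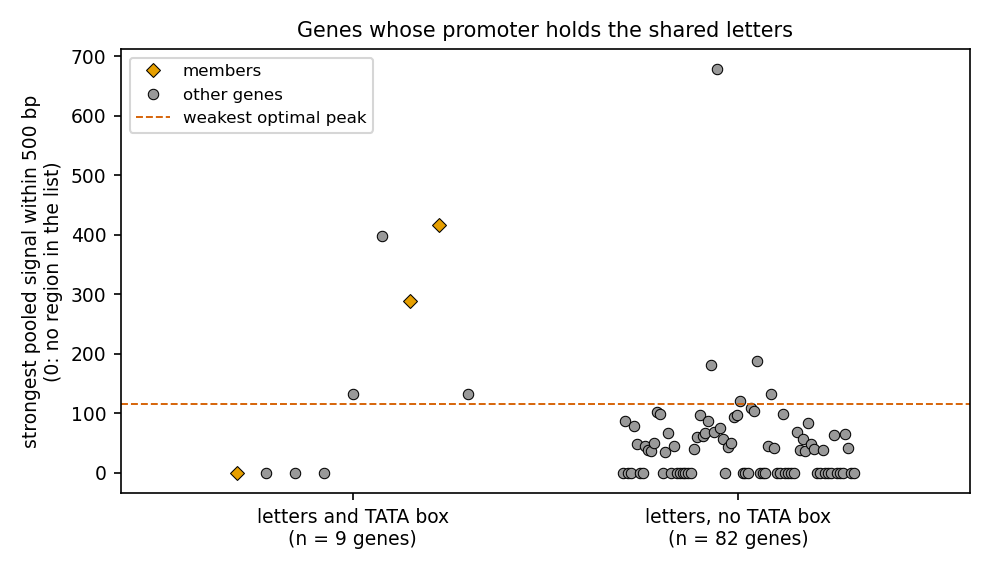
Strongest pooled signal value within 500 bp of each gene with the shared letters AACNC and TGTCNG, for the 9 genes with and the 82 genes without a TATA box. The dashed line marks the weakest optimal peak (signal value 115.7), and points at 0 have no region in the pooled list. With the TATA box 5 genes lie above the line, among them rpr-1 and mrpr-1, while yrn-1 is at 0. Without the TATA box 5 genes also lie above it, among them the highest point (677.8).

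No optimal peak was found at the matched genes of protein partners of these RNAs or of the RNA polymerase III machinery. The list held 34 names, of which 20 matched a protein-coding gene. Only 4 of the 13 names of ribonuclease P and MRP subunits matched, and 1 of the 2 names of Y RNA and La proteins. Genes under the unmatched names were not examined. Of the 20 matched genes, 0 had an optimal peak whose summit was 1000 bp or less from a start. The share over all protein-coding genes was 2.34%. At that background a count of 0 among 20 genes is not a result about the list. A pooled region of any signal was near 8 of the 20, where 51.7% of all protein-coding genes had one. Of the subunit genes popl-1, popl-4, popl-5 and popl-7, whose products belong to ribonuclease P and MRP, popl-5 had the strongest region (pooled signal value 76.4, rank 2683) and popl-4 a weaker one (50.7). No pooled region was near popl-1 or popl-7. The Ro protein gene rop-1, whose product binds Y RNA, had no pooled region, and a weak one in replicate 2 alone (28.3). The tRNA 3′ end nuclease gene hoe-1 had 76.0. Among SNAPc, TFIIIB and RNA polymerase III genes, 5 of 14 had a pooled region, the strongest at rpac-19 (75.1), which encodes a polymerase subunit, followed by the TATA-binding protein gene tbp-1 (57.3).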

How the data were processed

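The authors deposited 4 peak lists in ce11: the optimal set, a pooled list and 1 list per replicate. Per the notes deposited with the samples, the last 3 hold peaks and background and served as input for the optimal set. Which aligner, peak caller and threshold were used is not given in the sources used here. Both the signal value of a region and its −log10 q-value were computed by the authors. Signal values were compared only within a list, except as the ratio of replicates. Depth is unknown because the lists hold no read counts, and no depth-based error is given.

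Coordinates were joined to Ensembl release 115 (WBcel235, the same assembly as ce11), and sequence came from the RefSeq genome of that assembly. Ranks and counts use nuclear regions. A summit within 500 bp of an RNA gene, or within 1000 bp of a coding start, was assigned to it. The named genes are the 3 RNA genes, their neighbours, the 3 genes nearest to each in log2 signal of both replicates, and matched pathway genes with an optimal peak. Genes outside this rule, among them the pathway genes without an optimal peak, were named after their values were seen. The members and lists were chosen with earlier results of these data known. The search of regions was checked on simulated data. Python 3.11.15, pandas 2.3.3 and numpy 2.4.6 were used.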

Additional observations from a re-analysis of the deposited data

How the results depend on the processing

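The count of 2 of 3 genes with an optimal summit was 2 in all 9 alternatives: distances of 200 and 1000 bp, the interval midpoint, overlap with the gene, only the stronger optimal peaks (those above their median), the 635 strongest pooled regions, the 635 strongest regions without replicate 1 and without replicate 2 (range 2 to 2), and RefSeq gene models. The strongest pooled signal values at rpr-1 and mrpr-1 were the same in every alternative run for them. Without replicate 2 the summit position moved to 19 bp at rpr-1 and -18 bp at mrpr-1, and without replicate 1 it was 8 and 21 bp. It moved to -42 bp at rpr-1 with the interval midpoint, where the pooled interval is 181 bp wide. Among the 4466 pooled regions near an RNA gene, 99.6% and 98.6% were weaker than those at rpr-1 and mrpr-1. With all 14 shared letters in place of the shorter form, an alternative added after seeing the data, 2 genes with the TATA box had an optimal summit in place of 5. No value could be computed for yrn-1. No paired analysis was possible because the series holds 1 group.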

Other observations

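Outside the 3 genes, 10 genes held all 14 shared letters upstream and no TATA box. Optimal peaks lay within 500 bp of 2 of them, the ncRNA gene lfor-1 (pooled signal value 132.8) and the snoRNA gene F59C6.15 (188.5). Of the 10 genes, 6 were snoRNA and 3 ncRNA genes, classes in which 16.8% and 4.28% had an optimal summit. With so few genes the count is not a result about the letters. The ncRNA gene lfor-2 had no pooled region and a weak one in replicate 1 (15.1). Names and values were read together, and no test was made.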
